A study of Mus musculus with 24 samples.

Results

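Tnfrsf9, which encodes the costimulatory receptor 4-1BB, and 8 other genes of the TNF superfamily were followed in natural killer (NK) cells from control and tumor-bearing mice. They were picked by gene name. The 9 genes are the costimulatory receptors Tnfrsf9, Tnfrsf4 and Tnfrsf18, the receptors of TNF itself, Tnfrsf1a and Tnfrsf1b, the ligands Tnfsf14, Tnfsf10 and Fasl, and the death receptor Fas. They are 9 of 45237 genes in the table, of which 17097 (37.8%) had enough counts to be tested, and all 9 were among these.

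RNA was sequenced from NK cells of the spleen, sorted as negative for markers of other lineages and positive for NKp46 or NK1.1, whose antibodies carried the same dye. All mice were wild-type C57BL/6J animals, female and 7 to 9 weeks old where the methods state no other age, and the tumor-bearing ones had received lymphoma cells into a vein. RMA is a T cell lymphoma line that does not stimulate NK cells directly. RMA-KR was made from it by deletion of B2m, which removes MHC-I from the cell surface, and by addition of the NKG2D ligand Rae1-β, and it is 1 clone taken by limiting dilution. There were 4 libraries from untreated control mice. RMA gave 3 libraries at day 2 (early), 3 at day 4 (intermediate) and 3 at day 9 (late). RMA-KR gave 3 libraries at day 2 (early), 5 at day 7 (intermediate) and 3 at day 14 (late). The days match at the early stage alone, so that tumor and day cannot be told apart at the other stages, and the controls carry no day.

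Ligands of the TNF superfamily bind receptors that lack an enzyme of their own and pass the signal on through adaptors. Receptors such as 4-1BB, OX40 and GITR recruit TRAF proteins and feed into NF-kB and survival, whereas Fas and TNF receptor 1 carry a death domain that can recruit caspase-8. NK cells raise 4-1BB upon activation, and they use Fas ligand and TRAIL, the product of Tnfsf10, to kill target cells.

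The libraries held 5138651 to 14863500 counts each, the median being 10489204. Levels are given as CPM, the counts of a gene relative to the scaled total of its library in units of 1e6 counts. A floor of 3 counts corresponded to 0.208 to 0.552 CPM, and such floors cover counting error only. Libraries of the same group differed by more than counting error: over 31 pairs of libraries within groups, the chi-square statistic per degree of freedom ran from 17.9 to 95.2. In bulk samples such as these, fewer cells of a type and less RNA per cell cannot be told apart.

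Before the results, 4 libraries have to be set apart: control 4 and RMA-KR intermediate 3, 4 and 5. The summed level of 12 immediate early genes, which cells switch on within minutes of a stimulus, was 1271 CPM in control 4 and 1225, 1360 and 1249 CPM in RMA-KR intermediate 3, 4 and 5, against 4329 to 9827 CPM in the other 20 libraries. The ranges did not overlap. The summed level of 18 NF-kB subunits and regulators was 1953 to 2191 CPM in these 4 and 3390 to 6845 CPM in the other 20. The highest medians of that list were those of Tnfaip3 (1939 CPM) and Nfkbia (960 CPM), so the sum need not hold for each gene. Nfkb2 was 79.3, 130, 134 and 176 CPM in the 4, inside the range of the others (39.3 to 219 CPM). Among the superfamily genes, Tnfsf14 was 116 to 168 CPM in the 4 and 14.2 to 106 CPM in the others, and the ligand gene Ltb was 181 to 320.2 CPM against 11.6 to 60.7 CPM. Il7r, a marker of type 1 innate lymphoid cells, was 65.3 to 132 CPM in the 4 and 0.103 to 24.2 CPM in the others, again with no overlap. Fasl lay at the lower end in the 4, at 367 to 498 CPM against 438 to 1260 CPM. The ranges of Tnfrsf9 overlapped, at 198 to 872 CPM in the 4 and 113 to 879 CPM in the others, which span all 7 groups. Within RMA-KR intermediate it was 872, 533 and 634 CPM in libraries 3, 4 and 5, and 567 and 361 CPM in libraries 1 and 2. The labels give no batch, date or handling that separates these libraries, and the part of their handling in any result was not tested. Calls that were lost without them are given with and without them.

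**Figure D1:**
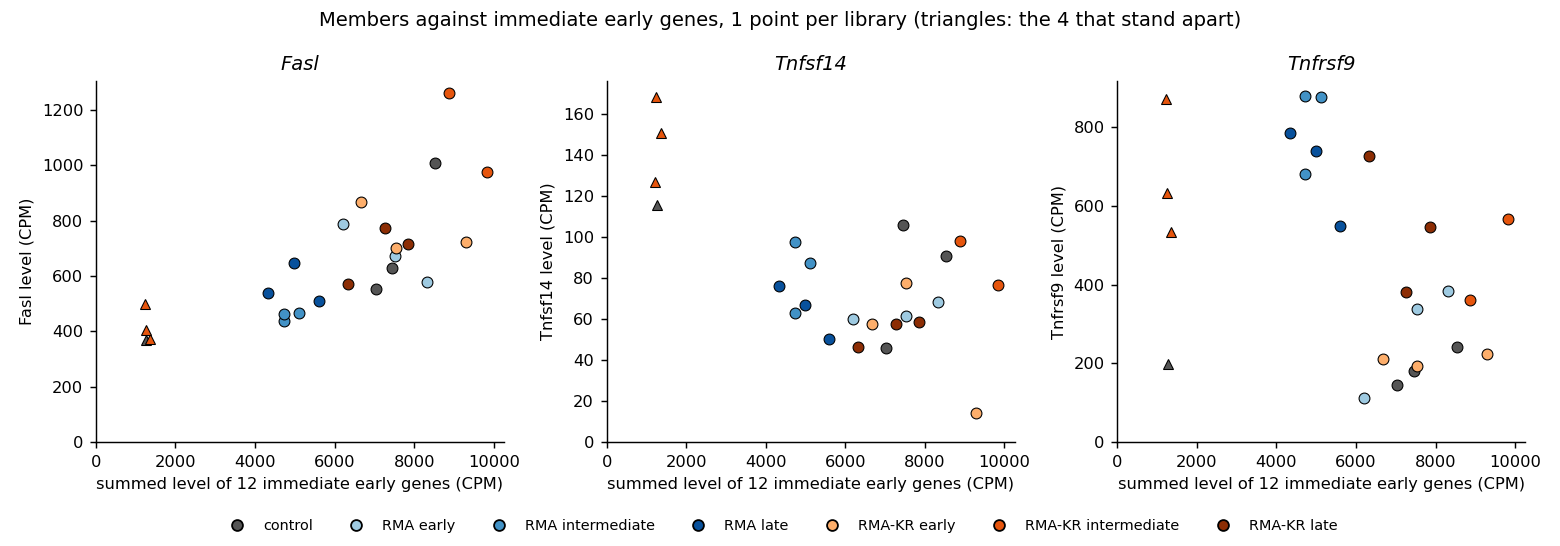
Level of Fasl, Tnfsf14 and Tnfrsf9 in CPM (vertical axes) against the summed level of 12 immediate early genes in CPM (horizontal axis), 1 point per library, colored by group. Control 4 and RMA-KR intermediate 3, 4 and 5 (triangles) have summed levels of 1225 to 1360 CPM and the other 20 libraries 4329 to 9827 CPM. The ranges of Tnfrsf9 overlap, and the other 20 libraries span all 7 groups.

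The identity of the sorted cells was checked with marker genes. The 13 NK cell markers summed to 22781 to 42878 CPM, with Gzma the most abundant (4422 to 16417 CPM) and none of the 13 at a median of 0. Their mean sum was 31560 CPM in control and 30774, 36610 and 40485 CPM in RMA early, intermediate and late. For RMA-KR early, intermediate and late it was 31209, 29354.5 and 31326 CPM. Gzmb was called higher than control in RMA intermediate and RMA late. The 5 markers of type 1 innate lymphoid cells summed to 8.02 to 209 CPM, with Il7r reaching the highest level (132 CPM, in a library that stands apart) and Zfp683 at a median of 0. The 13 T cell markers summed to 349.8 to 673 CPM, with Trbc1 at 180.4 to 419 CPM and Cd6, Cd4, Cd8a and Cd8b1 at a median of 0, and 6 of the 13 had a median under 1 CPM. NK cells themselves transcribe some of these genes, Trbc1 among them. The 8 B cell markers summed to 217 to 602 CPM, most of it Ighm, with Ms4a1 and Pax5 at a median of 0. The mean of this sum was 318 CPM in control and 254, 327 and 354 CPM in RMA early, intermediate and late. In RMA-KR early, intermediate and late it was 374, 396 and 507 CPM. The 5 plasma cell markers summed to 47.0 to 227 CPM, most of it Prdm1, which NK cells transcribe too, with Sdc1, Mzb1 and Derl3 at a median of 0.

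Markers of myeloid cells and red blood cells were read in the same way. The 10 macrophage and monocyte markers summed to 147 to 588 CPM, most of it Ly6c2, with Adgre1, Cd14, C1qa, C1qb and C1qc at a median of 0. The mean of this sum was 460 CPM in control and 364, 391 and 243 CPM in RMA early, intermediate and late. In RMA-KR early, intermediate and late it was 338, 355 and 173 CPM. Ly6c2 was called lower than control in RMA late and RMA-KR late. Over the 5 tested markers the median log2 difference from control was 0.91 and 2.38 there, so the sum does not stand for the other markers. Of the 10 markers, 7 had a median under 1 CPM. The 7 dendritic cell markers summed to 390.1 to 1133 CPM, most of it Itgax, with Clec9a and Siglech at a median of 0. Their mean sum was 531 CPM in control and 694, 863 and 791 CPM in RMA early, intermediate and late. In RMA-KR early, intermediate and late it was 526, 774 and 861 CPM. The 4 highest means of this sum were those of the 4 groups in which Tnfrsf9 was called against control. The sum is mostly that of 1 gene, and 5 of the 7 markers had a median under 1 CPM. Over the 6 tested markers the median log2 difference from control was -1.58 in RMA intermediate and 0.53 in RMA late. In RMA-KR intermediate and late it was 1.08 and -0.20, and none of these markers was called in the 4 groups. The part of this sum in Tnfrsf9 was not tested. The 8 granulocyte markers summed to 0 to 17.2 CPM, with Ngp reaching the highest level (4.83 CPM) and all 8 at a median of 0. The 5 red blood cell markers summed to 0 to 3.56 CPM, with Alas2 the most abundant and Hba-a1 and Hba-a2 at a median of 0. Several defining markers of T, B and myeloid cells thus had a median of 0, but single libraries held more of some other markers: Cd68 reached 77.9 CPM in RMA-KR late 1 (median 16.2 CPM), where the macrophage and monocyte markers summed to 156 CPM. Among T cell markers Cd3d reached 30.4 CPM and Cd3g 24.1 CPM in RMA-KR intermediate 4, and Cd5 reached 23.5 CPM in RMA early 2. Igkc reached 134 CPM and Jchain 17.7 CPM in RMA-KR late 2, and Cd22 reached 46.3 CPM in RMA-KR intermediate 4. These 7 genes were chosen after their values were seen, and the part of such cells in the results was not tested.

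Regulatory T cells, which can carry high levels of Tnfrsf9, Tnfrsf4 and Tnfrsf18, were checked separately. Their 5 markers summed to 34.1 to 359 CPM, of which the actin-capping gene Capg made up 34.0 to 353 CPM, while Foxp3 and Ikzf4 were at a median of 0. The mean sum was 50.9 CPM in controls, 58.1 CPM in RMA early, 241 CPM in RMA intermediate, 272 CPM in RMA late, 64.2 CPM in RMA-KR early, 69.9 CPM in RMA-KR intermediate and 181 CPM in RMA-KR late. Capg was called higher than control in RMA intermediate, RMA late and RMA-KR late, 3 of the 4 groups in which Tnfrsf9 was called. The other markers were low, with Ctla4 and Il2ra at medians of 0.650 and 0.618 CPM. Over the 4 tested markers the median log2 difference from control was -0.14 in RMA intermediate, 0.57 in RMA late and 1.65 in RMA-KR late. Capg was the only call in each of these groups. In RMA-KR intermediate the median was 0.29, with no call. Cells stained for T cell receptors and other T cell markers were excluded by the sort. The part of Capg or of such cells in the level of Tnfrsf9 was not tested.

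Each tumor group was first compared with control, the question being which of these genes NK cells change while a tumor grows. All 24 libraries entered 1 edgeR model, and a call needed a fold change above 2 and, over the 17097 genes, an adjusted p under 0.05. The 6 comparisons share the 4 control libraries. In RMA early, 0 of 9 members were called by edgeR, 0 had an unadjusted p under 0.05 and 0 were called by DESeq2, where edgeR called 0 of all genes (0%). In RMA intermediate 1 of 9 was called (Tnfrsf9, higher) against 1.65% of all genes, and in RMA late 1 of 9 (Tnfrsf9, higher) against 1.79%. In RMA-KR early 1 of 9 was called (Tnfrsf1a, lower) against 0.0819% of all genes, in RMA-KR intermediate 1 of 9 (Tnfrsf9, higher) against 0.0175%, and in RMA-KR late 1 of 9 (Tnfrsf9, higher) against 0.983%. The median log2 fold change of the members was -0.06, -0.12, -0.18, 0.04, 0.14 and 0.01 in RMA early, intermediate and late and RMA-KR early, intermediate and late, and that of all genes was -0.06, -0.29, -0.18, 0.00, 0.01 and -0.18. The calls came from Tnfrsf9 and Tnfrsf1a. Between stages the medians of members and of all genes were 0.38 and -0.11 from RMA early to intermediate, -0.06 and 0.07 from RMA intermediate to late, and 0.02 and -0.05 from RMA early to late. In RMA-KR they were 0.70 and 0.02 from early to intermediate, -0.11 and -0.16 from intermediate to late, and 0.52 and -0.10 from early to late. No test was made on these medians. A test for any difference over the 7 groups passed for the same 2 of 9 members, at an adjusted p of 0.000399 for Tnfrsf9 and 0.00668 for Tnfrsf1a, with 5.69% of all genes passing. The other 7 had adjusted p from 0.102 (Tnfrsf1b) to 0.760 (Tnfrsf18).

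The number of all genes called moved widely when 1 library was left out. In RMA early against control it ran from 0 to 86, the latter without RMA early 3, and DESeq2 with all libraries called 60. In RMA late against control it ran from 127 (without RMA late 2) to 457 (without RMA late 3), and from RMA early to intermediate from 49 (without RMA early 1) to 568 (without RMA early 3). From RMA-KR early to intermediate it ran from 8 (without RMA-KR early 2) to 221 (without RMA-KR intermediate 2). The shares of all genes called that are given beside the members depend on single libraries in the same way.

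**Figure D2:**
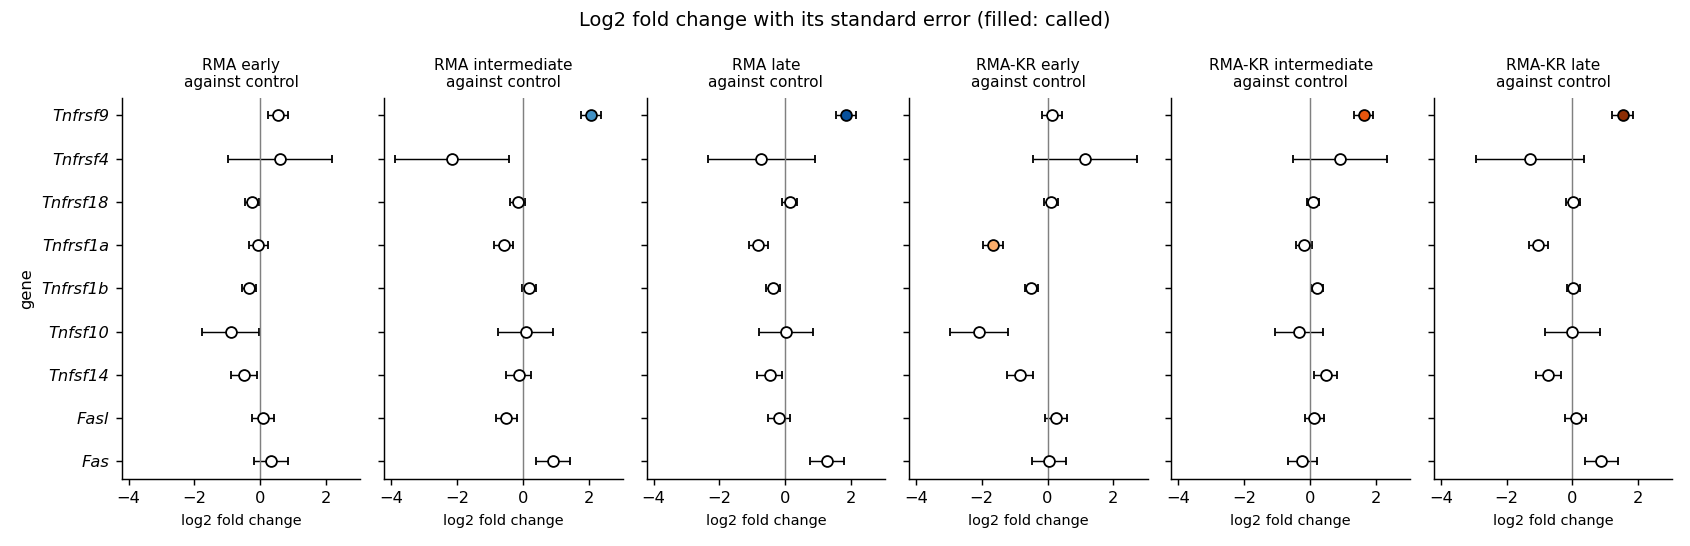
Log2 fold change against control (horizontal axis) of each of the 9 members (vertical axis) in each of the 6 tumor groups, with its standard error as a bar and calls as filled points. Tnfrsf9 is called higher in 4 groups, from 1.52 to 2.08, and Tnfrsf1a lower in RMA-KR early, at -1.66.

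In control NK cells the members differed widely in level per length, in CPM per kb of exon. Fasl stood highest at 330.1 ± 139 (SD, n = 4), followed by Tnfrsf1b at 95.3 ± 6.70, Tnfrsf18 at 93.2 ± 21.2 and Tnfrsf9 at 70.3 ± 14.7. Tnfsf14 was at 48.4 ± 16.7, Tnfrsf1a at 29.9 ± 5.27, Fas at 4.57 ± 2.14, Tnfsf10 at 3.02 ± 1.56 and Tnfrsf4 at 1.24 ± 0.686. The neighbours Tnfrsf1b and Tnfrsf18, Tnfrsf18 and Tnfrsf9, Tnfrsf9 and Tnfsf14, Tnfsf14 and Tnfrsf1a, Fas and Tnfsf10, and Tnfsf10 and Tnfrsf4 overlapped in their control libraries. Fasl and Tnfrsf1b, and Tnfrsf1a and Fas, did not. The order depends on the length used. With the median transcript length given in the table of counts, the means were 545.8 for Fasl, 191 for Tnfrsf9, 174 for Tnfrsf1b, 151 for Tnfrsf18, 112 for Tnfrsf1a, 48.4 for Tnfsf14, 6.70 for Fas, 5.31 for Tnfsf10 and 1.64 for Tnfrsf4, so that Tnfrsf9 moved from 4th to 2nd and Tnfrsf1a passed Tnfsf14.

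Several members are neighbours on their chromosomes: Tnfrsf4 and Tnfrsf18 lie 9.55 kb apart on chromosome 4, Tnfrsf1b lies 20.3 kb from Tnfrsf8 on the same chromosome, Tnfrsf1a lies 35.5 kb from Ltbr on chromosome 6, and Tnfsf14 lies 39.7 kb from Cd70 and 81.7 kb from Tnfsf9 on chromosome 17. Of the 9 members, Tnfrsf18 alone shares exon bases with another gene, the antisense gene Gm16008 (414 bases, 27.2% of its exons), which reached at most 68 counts (7.00 CPM) in any library.

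Tnfrsf9 (ENSMUSG00000028965) lies on the plus strand of chromosome 4 from 150914562 to 150946102 on mm10, with 11 exon blocks of 2722 bases in all. RefSeq promoters (build GRCm38.p6, 250 bases before the start site and 50 from it) were found for 9 of 9 members, 10 in all, with 2 for Tnfrsf9. They are shown because Tnfrsf9 was the member that changed most often, and NF-kB and AP-1 are the factors at the end of the pathways of this family. Capitals mark matches to the NF-kB motif and to the AP-1 motif TGAGTCA, which reads TGACTCA on the other strand, and both strands were searched. The 2 windows of Tnfrsf9, at chr4:150919905-150920204 and chr4:150927749-150928048, both on the plus strand, read as follows.
Tnfrsf9 upstream start: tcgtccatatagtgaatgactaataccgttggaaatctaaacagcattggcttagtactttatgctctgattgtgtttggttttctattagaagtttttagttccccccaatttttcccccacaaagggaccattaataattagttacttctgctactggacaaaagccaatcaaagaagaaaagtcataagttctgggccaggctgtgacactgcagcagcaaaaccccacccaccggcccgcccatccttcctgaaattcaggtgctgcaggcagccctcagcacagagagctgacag
Tnfrsf9 downstream start: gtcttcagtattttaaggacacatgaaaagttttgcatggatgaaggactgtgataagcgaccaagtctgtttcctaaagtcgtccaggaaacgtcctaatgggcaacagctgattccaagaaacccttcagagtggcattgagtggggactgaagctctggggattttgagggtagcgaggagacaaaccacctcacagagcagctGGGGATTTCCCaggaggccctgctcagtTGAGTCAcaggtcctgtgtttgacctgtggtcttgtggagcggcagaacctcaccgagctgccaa
The upstream window, 50 bases of which are exon and 250 intron, held neither motif. The downstream window, with 131 bases of exon and 169 of intron, held a stretch of 11 bases that matches the NF-kB motif 43 to 33 bases before the start site, and TGAGTCA 15 to 9 bases before it, with no overlap between them. Camta1 is annotated over both windows too. Among the 9 members the NF-kB motif was found for 1 (Tnfrsf9) and the AP-1 motif for 3 (Tnfrsf9, Tnfsf14 and Fas). Of 32851 promoters of this length, 2779 (8.46%) held the NF-kB motif and 1709 (5.20%) the AP-1 motif. A match is a description of the letters, and whether a factor binds there in NK cells was not measured.

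The level of Tnfrsf9 in the 4 control libraries was 145, 181, 242 and 198 CPM. At day 2 it was 113, 384 and 339 CPM with RMA and 225, 211 and 192 CPM with RMA-KR. Both early groups overlapped with control, RMA early being the most scattered, with 1 library below every control and the other 2 above every control. At day 4, RMA intermediate stood at 680.2, 879 and 876 CPM, and at day 9 RMA late stood at 738, 786 and 548 CPM. All 6 of these libraries were above the highest control and above the highest library of RMA early. RMA-KR intermediate was at 567, 361, 872, 533 and 634 CPM at day 7, and RMA-KR late was at 380.3, 728 and 546 CPM at day 14. These 8 libraries, too, were above the highest control, while their SDs were the largest of the 7 groups.

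**Figure D3:**
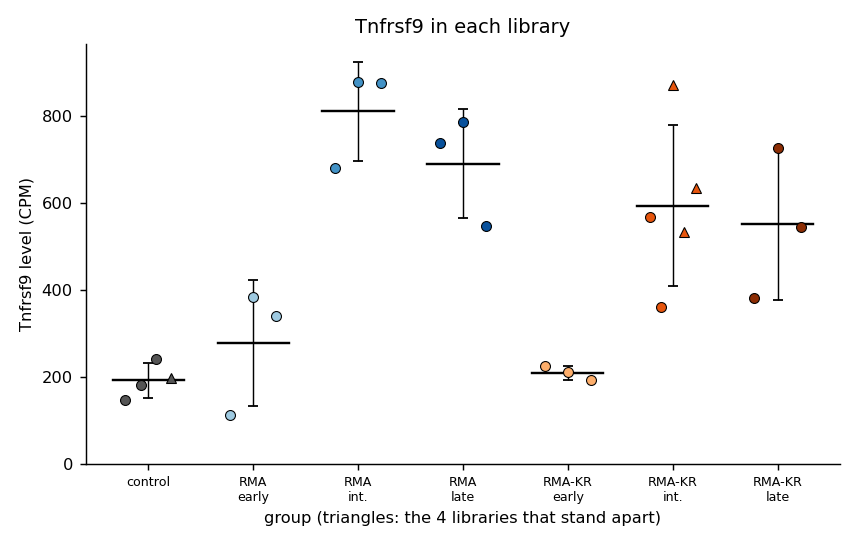
Level of Tnfrsf9 in CPM (vertical axis) in each library of the 7 groups (horizontal axis), with black bars for the mean and its SD and triangles for the 4 libraries that stand apart. Control libraries lie between 145 and 242 CPM, and all intermediate and late libraries lie at 361 CPM or above.

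The group means of Tnfrsf9 were, from lowest to highest, 191 ± 40.1 CPM in control (SD, n = 4), 209 ± 16.4 in RMA-KR early (n = 3), 279 ± 145 in RMA early (n = 3), 551 ± 174 in RMA-KR late (n = 3), 593 ± 185 in RMA-KR intermediate (n = 5), 691 ± 126 in RMA late (n = 3) and 812 ± 114 in RMA intermediate (n = 3). At each step in this order the libraries of the neighbouring groups overlapped. Against control, Tnfrsf9 was higher by 2.08 on the log2 scale in RMA intermediate (SE 0.31, 4.23-fold, adjusted p 0.000536) and by 1.85 in RMA late (SE 0.31, 3.60-fold, adjusted p 0.00149). Both calls held under each of the 8 other ways of analysis (adjusted p 2.06e-20 to 0.00279 and 5.01e-16 to 0.00736) and in 7 of 7 fits that left out 1 library of the groups compared. Without the 4 libraries that stand apart the log2 differences were 2.11 and 1.87. In RMA early the log2 difference of 0.54 (SE 0.31, adjusted p 0.715) did not pass, nor did 0.13 in RMA-KR early (SE 0.31, adjusted p 0.979). When 1 library was left out, they ran from 0.26 to 0.94 and from 0.04 to 0.28.

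In the RMA-KR model, Tnfrsf9 was higher than control by 1.63 on the log2 scale at the intermediate stage (SE 0.28, 3.10-fold, adjusted p 0.0377) and by 1.52 at the late stage (SE 0.31, 2.87-fold, adjusted p 0.0116). The intermediate call rests on single libraries, since it was kept in 1 of 9 fits that left out a library, that without RMA-KR intermediate 2 (1.77, adjusted p 0.0208). It was lost without control 1 (1.53, adjusted p 0.444), control 2 (1.60, 0.328), control 3 (1.76, 0.155) or control 4 (1.64, 0.185). The same happened without RMA-KR intermediate 1 (1.64, 0.104), 3 (1.45, 0.181), 4 (1.67, 0.0797) or 5 (1.60, 0.142). Without all 4 libraries that stand apart, 3 of which are in this group, the difference was 1.31 and did not pass (adjusted p 0.733), within a range of 2.63e-13 to 0.733 over the 8 other ways of analysis, 5 of which kept the call. In each of these fits the log2 difference was at least 1.31, so that the size moved less than the adjusted p. The late call was kept under all 8 other ways (adjusted p 9.01e-11 to 0.0371), among them the one without the 4 libraries (1.58, 0.0333). It was lost without control 1 (1.41, adjusted p 0.0512), control 2 (1.49, 0.0519) or RMA-KR late 2 (1.30, 0.0542).

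Changes between the stages of 1 model were tested next, which ask when Tnfrsf9 moves after injection. From RMA early to RMA intermediate, 1 of 9 members was called (Tnfrsf9) against 1.73% of all genes, with a log2 difference of 1.54 (SE 0.34, adjusted p 0.0172). All 3 intermediate libraries were above all 3 early ones. The call was lost without RMA early 1 (1.17, adjusted p 0.0841), RMA intermediate 2 (1.49, 0.0569) or RMA intermediate 3 (1.49, 0.0717), and held in 7 of 8 other ways of analysis (adjusted p 4.37e-09 to 0.118). From RMA intermediate to RMA late, edgeR called 0 of 9 members and 0% of all genes. In that comparison 1 member had an unadjusted p under 0.05 (Tnfrsf1b, lower by 0.56) and DESeq2 called 0, and Tnfrsf9 differed by -0.23 (adjusted p 1). From RMA early to RMA late, 1 of 9 was called (Tnfrsf9, 1.31, adjusted p 0.0345) against 2.01% of all genes. That call was lost without RMA early 1 (0.94, adjusted p 0.151), RMA late 1 (1.32, 0.101) or RMA late 2 (1.21, 0.155), and held in 7 of 8 other ways (adjusted p 1.67e-06 to 0.216).

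In RMA-KR, 2 of 9 members were called higher from early to intermediate, Tnfrsf9 and Tnfrsf1a, against 0.462% of all genes. For Tnfrsf9 the log2 difference was 1.50 (adjusted p 0.0270), and all 5 intermediate libraries were above all 3 early ones. The call was lost without RMA-KR early 1 (1.53, adjusted p 0.0801), 2 (1.50, 0.129) or 3 (1.44, 0.0971), and without RMA-KR intermediate 3 (1.30, 0.0854), 4 (1.52, 0.0558) or 5 (1.47, 0.0714). It was also lost without the 4 libraries that stand apart (1.13, adjusted p 0.556), in a range of 2.90e-09 to 0.556 over the 8 other ways of analysis. From RMA-KR intermediate to late, edgeR called 0 of 9 members against 0.298% of all genes. There 3 members had an unadjusted p under 0.05 (Tnfsf14, Fas and Tnfrsf1a), DESeq2 called 0 with default settings and 1 with betaPrior=TRUE (Tnfsf14), and Tnfrsf9 differed by -0.11 (adjusted p 0.911). From RMA-KR early to late, edgeR called 0 of 9 against 0.322% of all genes, 3 had an unadjusted p under 0.05 (Tnfrsf1b, Tnfrsf9 and Tnfsf10) and DESeq2 called 1 (Tnfrsf9). The log2 difference of Tnfrsf9 was 1.39 (adjusted p 0.0671), with all late libraries above all early ones, and it passed without RMA-KR late 1 (1.60, adjusted p 0.0496).

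The models were then set against each other, a comparison with matched days at day 2 alone. In RMA early against RMA-KR early, 1 of 9 members was called (Tnfrsf1a) against 0.304% of all genes, and Tnfrsf9 differed by 0.41 (SE 0.33, adjusted p 0.651). This difference depends on single libraries, since it ran from 0.11 to 0.81 when 1 was left out. At the intermediate stage edgeR called 0 of 9 members against 0.503% of all genes, with 1 at an unadjusted p under 0.05 (Fas) and 0 by DESeq2, and Tnfrsf9 differed by 0.45 (adjusted p 0.472). Over the 8 other ways of analysis this difference ran from 0.34 to 0.80 and did not pass. At the late stage edgeR called 0 of 9 and 0% of all genes, with 0 at an unadjusted p under 0.05 and 0 by DESeq2, and Tnfrsf9 differed by 0.33 (adjusted p 0.830). The change from early to late was compared between the models as well. edgeR called 0 of 9 members and 0% of all genes, 1 had an unadjusted p under 0.05 (Tnfrsf1a) and DESeq2 called 0. For Tnfrsf9 the change in RMA-KR exceeded that in RMA by 0.09 (SE 0.46, adjusted p 1). Tnfrsf9 was called against control in 2 stages of each model, and in these 4 tests a difference between the models did not pass.

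The genes whose level followed that of Tnfrsf9 most closely over the 24 libraries were taken from 8290 genes with a mean log2 CPM of at least 3. They were Dut (Pearson r 0.926), Psat1 (0.915), Mcm7 (0.913), Dctpp1 (0.910), Pkm (0.903), Mcm5 (0.903), Lgals3bp (0.901), Eif5a (0.900), Serpina3g (0.899) and Nhp2 (0.896), with Spearman's rho from 0.880 to 0.930. The libraries share their groups and their scaling, so these are descriptions. Dut makes a precursor of dTTP, Mcm5 and Mcm7 are parts of the replicative helicase, Psat1 makes serine, Pkm is pyruvate kinase, Eif5a is a translation factor and Nhp2 belongs to the H/ACA particles. Without the 4 libraries that stand apart, 5 of the 10 were again among the highest 10. The other members followed Tnfrsf9 far less closely, with r from -0.37 (Fasl) to 0.35 (Fas).

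Tnfrsf18 encodes GITR and Tnfrsf4 encodes OX40, both costimulatory receptors like 4-1BB. Tnfrsf18 ran from 104 to 195 CPM over the 24 libraries, and its group means ran from 119 ± 23.9 CPM in RMA early to 156 ± 10.5 CPM in RMA late, with the libraries of neighbouring groups overlapping at each step. Its log2 difference from control lay between -0.25 and 0.14 in the 6 tumor groups. Tnfrsf4 ran from 0 to 7.80 CPM, with at most 86 counts, no counts in 4 libraries and at most 3 counts in 6. Libraries of 1 group were far apart, with 47, 0, 1, 69 and 49 counts in RMA-KR intermediate, and the SE of its log2 differences from control was 1.43 to 1.73. Thus of the costimulatory receptors among the 9 genes, Tnfrsf9 was called and Tnfrsf18 and Tnfrsf4 were not.

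**Figure D4:**
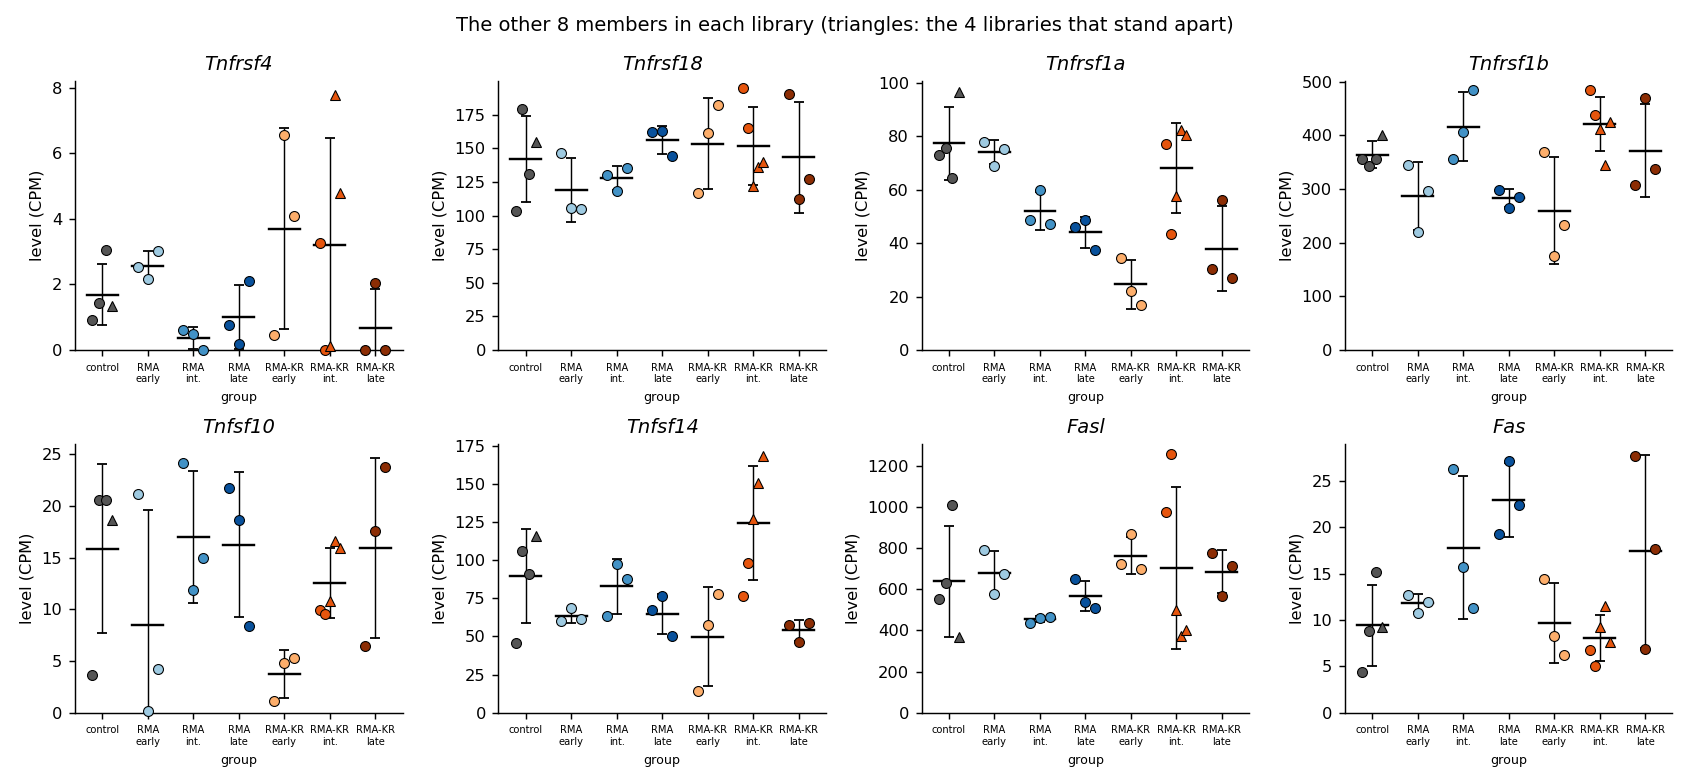
Level in CPM (vertical axes) of the other 8 members in each library of the 7 groups (horizontal axes), with black bars for the mean and its SD and triangles for the 4 libraries that stand apart. Tnfrsf1a is lowest in RMA-KR early, at 16.8 to 34.5 CPM, and most other members overlap between groups.

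Tnfrsf1a and Tnfrsf1b encode TNF receptor 1, which carries a death domain, and TNF receptor 2, which lacks one and recruits TRAF proteins. Tnfrsf1a (ENSMUSG00000030341) lies on the plus strand of chromosome 6 from 125349362 to 125362484, with 11 exon blocks of 2591 bases in all. Its promoter at chr6:125349473-125349772 on the plus strand, from the same RefSeq table, is shown because it is the other member called, and it held neither the NF-kB nor the AP-1 motif.
Tnfrsf1a: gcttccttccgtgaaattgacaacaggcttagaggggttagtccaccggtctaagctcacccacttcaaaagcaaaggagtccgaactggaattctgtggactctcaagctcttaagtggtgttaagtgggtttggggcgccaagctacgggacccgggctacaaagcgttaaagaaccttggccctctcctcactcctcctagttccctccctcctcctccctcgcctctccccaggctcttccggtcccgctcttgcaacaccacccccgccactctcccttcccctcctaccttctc
Of this window 86 bases are exon and 214 intron in the annotation, and 57.0% of its bases are G or C.

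Tnfrsf1a stood at 72.9, 75.5, 64.5 and 96.6 CPM in the control libraries and at 78.0, 68.9 and 75.2 CPM in RMA early. In RMA-KR early it was 34.5, 22.2 and 16.8 CPM. All 3 RMA-KR early libraries were below every library of control and of RMA early. Later in the RMA-KR model it was 76.9, 43.4, 57.6, 82.1 and 80.5 CPM at the intermediate stage and 30.3, 56.2 and 27.1 CPM at the late stage. RMA intermediate had 48.7, 60.0 and 47.1 CPM, and RMA late had 46.0, 48.6 and 37.4 CPM. Both later RMA groups and RMA-KR late lay below every control library, and RMA-KR intermediate overlapped with control. The group means were, from lowest to highest, 24.5 ± 9.08 CPM in RMA-KR early (SD, n = 3), 37.9 ± 15.9 in RMA-KR late (n = 3), 44.0 ± 5.86 in RMA late (n = 3), 51.9 ± 7.03 in RMA intermediate (n = 3), 68.1 ± 17.0 in RMA-KR intermediate (n = 5), 74.0 ± 4.65 in RMA early (n = 3) and 77.4 ± 13.6 in control (n = 4). The libraries of neighbouring groups overlapped at each step.

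Tnfrsf1a fell by 1.66 on the log2 scale in RMA-KR early against control (SE 0.30, 3.16-fold, adjusted p 0.0265). It was higher in RMA early than in RMA-KR early by 1.60 (SE 0.31, adjusted p 0.0258), and it rose by 1.47 from RMA-KR early to RMA-KR intermediate (SE 0.29, adjusted p 0.0186). The early fall against control was kept in 1 of 7 fits that left out a library, that without RMA-KR early 1 (-1.96, adjusted p 0.0249). It was lost without control 1 (-1.66, adjusted p 0.0748), control 2 (-1.65, 0.0872), control 3 (-1.71, 0.0611) or control 4 (-1.51, 0.0834), and without RMA-KR early 2 (-1.58, 0.194) or 3 (-1.44, 0.141). Without the 4 libraries that stand apart it was -1.50 and did not pass (adjusted p 0.0966), the highest adjusted p in a range that starts at 4.14e-05 over 8 other ways of analysis, of which 5 kept the call. In RMA early against control Tnfrsf1a differed by -0.06 (adjusted p 0.988), a difference whose sign changed with the scaling (0.01 with the size factors of DESeq2).

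The difference between the models at day 2 held in 7 of 8 other ways of analysis (adjusted p 6.88e-05 to 0.371), among them the one without the 4 libraries (1.61, adjusted p 0.0440). It was lost without RMA early 1 (1.58, adjusted p 0.0683) or 2 (1.64, 0.0701) and without RMA-KR early 2 (1.55, 0.151) or 3 (1.41, 0.113). The rise of Tnfrsf1a from RMA-KR early to intermediate was lost without RMA-KR early 2 (1.40, 0.129) or 3 (1.26, 0.105), without RMA-KR intermediate 3 (1.50, 0.0551) or 4 (1.37, 0.0558), and without the 4 libraries that stand apart (1.28, adjusted p 0.556, in a range from 7.29e-05 over the other ways). Against control, RMA intermediate differed by -0.58 (adjusted p 0.321), RMA late by -0.82 (0.160), RMA-KR intermediate by -0.18 (0.999) and RMA-KR late by -1.03 (0.0915). The last of these passed without RMA-KR late 2 (-1.40, adjusted p 0.0335), and its adjusted p ran from 0.0117 to 0.298 over the 8 other ways. The change of Tnfrsf1a from early to late in RMA-KR exceeded that in RMA by 1.38 (SE 0.43), with an adjusted p of 0.362.

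Tnfrsf1b was at 355, 343, 355 and 401 CPM in control and at 369.5, 176 and 232 CPM in RMA-KR early. RMA-KR intermediate had 485, 437, 412, 346 and 425 CPM. RMA-KR early was scattered, with 1 of its 3 libraries inside the control range and the other 2 below it. All 3 RMA late libraries (298, 265 and 285 CPM) lay below every control, at no unadjusted p under 0.05. RMA early (345, 219 and 296 CPM) and RMA intermediate (356, 406 and 485 CPM) overlapped with control. Over all 24 libraries the gene ran from 176 to 485 CPM, and edgeR called it in 0 of the comparisons, with an unadjusted p under 0.05 in 5 of them. From RMA-KR early to intermediate it differed by 0.70 (SE 0.20, adjusted p 0.0972), and it was called there without RMA-KR early 1 (1.02, adjusted p 0.0376). In RMA-KR early against control it differed by -0.49 (adjusted p 0.536).

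The ratio of Tnfrsf1b to Tnfrsf1a counts within a library does not depend on scaling between libraries. It was 4.87, 4.55, 5.51 and 4.15 in the control libraries and 10.7, 7.91 and 13.8 in RMA-KR early. RMA early had 4.42, 3.18 and 3.93. RMA-KR early thus lay above every library of control and RMA early. The group means were 4.77 ± 0.574 in control (SD, n = 4), 3.85 ± 0.627 in RMA early, 8.13 ± 1.89 in RMA intermediate and 6.52 ± 1.09 in RMA late, and 10.8 ± 2.95 in RMA-KR early, 6.60 ± 2.23 in RMA-KR intermediate (n = 5) and 10.3 ± 2.02 in RMA-KR late. All 3 RMA-KR late and all 3 RMA intermediate libraries were above every control, while RMA-KR intermediate (4.21 to 10.1) and RMA late (5.45 to 7.63) overlapped with control. The ratio is a description, with no test.

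**Figure D5:**
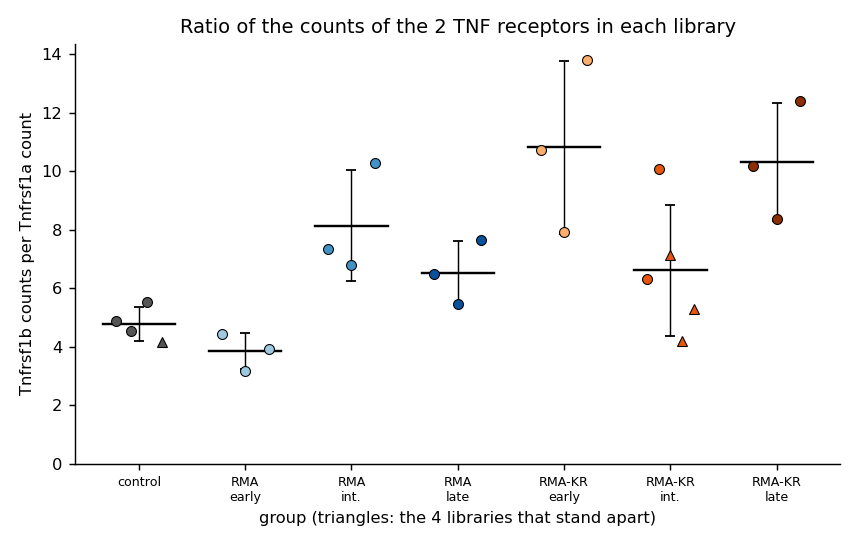
Counts of Tnfrsf1b per count of Tnfrsf1a (vertical axis) in each library of the 7 groups (horizontal axis), with black bars for the mean and its SD and triangles for the 4 libraries that stand apart. RMA-KR early (7.91 to 13.8) and RMA-KR late (8.37 to 12.4) lie above control (4.15 to 5.51).

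Among the ligands, Fasl encodes the ligand of Fas and had the highest level per length of the 9 members in control. Its libraries were at 554, 629, 1008 and 367 CPM in control, 789, 578 and 673 CPM in RMA early and 723, 867 and 700.5 CPM in RMA-KR early. At the intermediate stage RMA had 438, 462 and 466 CPM and RMA-KR had 976, 1260, 498, 374 and 404 CPM. The RMA-KR intermediate group is split, with libraries 3, 4 and 5, which stand apart in immediate early genes, at 374 to 498 CPM and libraries 1 and 2 at 976 and 1260 CPM. RMA late had 648, 539 and 511 CPM and RMA-KR late had 775, 569 and 714 CPM. edgeR called Fasl in 0 of the comparisons, at no unadjusted p under 0.05, and DESeq2 called it in 0 as well. RMA intermediate against RMA-KR intermediate gave -0.63 (SE 0.32, adjusted p 0.357), and without the 4 libraries that stand apart it gave -1.30 and passed (adjusted p 0.00938, in a range up to 0.516 over the 8 other ways). That fit has 2 libraries in RMA-KR intermediate.

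Tnfsf14 encodes LIGHT, a ligand of the receptors HVEM and lymphotoxin beta receptor. It was at 45.8, 106, 90.5 and 116 CPM in control, 14.2, 57.6 and 77.6 CPM in RMA-KR early, 76.6, 97.9, 127, 151 and 168 CPM in RMA-KR intermediate and 57.5, 46.2 and 58.6 CPM in RMA-KR late. The highest 4 of all 24 libraries were the 4 that stand apart, and the RMA groups ran from 50.4 to 97.6 CPM. From RMA-KR early to intermediate the log2 difference was 1.32 (SE 0.38, adjusted p 0.103), which passed in 4 of 8 other ways of analysis (adjusted p 0.0109 to 0.556) and was 0.79 without the 4 libraries. From intermediate to late it was -1.20 (adjusted p 0.268), which passed in 2 of 8 other ways (adjusted p 0.0387 to 0.740) and was -0.66 without the 4 libraries. Against control, RMA-KR early differed by -0.85 (adjusted p 0.561), a value that ran from -1.31 to -0.37 when 1 library was left out.

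Tnfsf10 encodes TRAIL. It was at 3.68, 20.6, 20.6 and 18.7 CPM in control and at 1.11, 4.81 and 5.30 CPM in RMA-KR early. The RMA-KR early libraries lay below 3 of the 4 controls, and control 1 was the exception. Over the 24 libraries Tnfsf10 ran from 0.206 to 24.2 CPM, and RMA early was the most scattered group, at 21.1, 0.206 and 4.22 CPM. The log2 difference of RMA-KR early from control was -2.08 with an SE of 0.89 (adjusted p 0.541), and that of RMA-KR late from RMA-KR early was 2.08 with an SE of 0.93 (adjusted p 0.308). In 7 other ways of analysis that gave it a value, neither passed.

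Fas encodes the death receptor for Fas ligand. Its libraries were at 4.42, 8.86, 15.1 and 9.25 CPM in control, and at 12.8, 10.8 and 11.99 CPM in RMA early. They were at 26.4, 15.7 and 11.3 CPM in RMA intermediate and at 19.3, 27.2 and 22.4 CPM in RMA late. RMA late lay above every control library. RMA-KR early had 14.5, 8.32 and 6.19 CPM, RMA-KR intermediate 6.80, 5.04, 9.26, 11.5 and 7.62 CPM, and RMA-KR late 27.7, 6.88 and 17.7 CPM. The RMA-KR groups overlapped with control. RMA late differed from control by 1.28 on the log2 scale (SE 0.51, adjusted p 0.244), with all 3 libraries higher, and did not pass in any of the 8 other ways of analysis (adjusted p 0.0648 to 0.598). RMA intermediate against RMA-KR intermediate gave 1.14 (adjusted p 0.345).

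The rest of the pathway was read from 5 lists of 78 genes, 68 of them tested. They hold 22 other receptors of the superfamily (16 tested), 15 other ligands (11 tested), 12 TRAF and cIAP adaptors, 11 genes of the death domain and caspase-8 complex and 18 NF-kB subunits and regulators. In RMA intermediate against control 1 gene of the 68 was called (Tnfrsf26, lower), or 1.47%, against 1.65% of all genes. RMA late and RMA-KR late had 1 of 68 each (1.47%), higher in both (Ripk3), against 1.79% and 0.983% of all genes. In RMA early, RMA-KR early and RMA-KR intermediate edgeR called 0 of 68, against 0%, 0.0819% and 0.0175% of all genes. In the same order, 5, 5 and 5 of the 68 had an unadjusted p under 0.05, and DESeq2 called 0, 2 and 0. The median log2 fold change over the 68 lay between -0.11 and 0.07 in the 6 comparisons. Single lists went further: the ligands had a median of -1.41 in RMA early and -1.11 in RMA intermediate, and the receptors had -0.30 in RMA-KR late. No test was made on these medians. That of the ligands in RMA early is the value of Ltb alone (-1.41, adjusted p 0.704), which was at 181 CPM in control 4, a library that stands apart, and at 37.0 to 58.9 CPM in the other controls, and the median was not worked out without control 4. Of the 11 tested ligands Lta and Tnfsf11 had a median of 0 CPM, and Tnfsf13 (0.0920 CPM), Tnfsf13b (0.0571 CPM) and Eda (0.0797 CPM) were close to it, all 5 named after their values were seen. By list, the calls against control were 1 of 16 receptors in RMA intermediate and 1 of 11 death domain genes in each late group. For the ligands, the adaptors and the NF-kB list edgeR called 0 in each of the 6 comparisons with control, with at most 2 ligands, 2 adaptors and 5 NF-kB genes at an unadjusted p under 0.05 in any of them.

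Ripk3, the kinase of necroptosis, was at 52.1, 57.2, 45.2 and 44.0 CPM in control, 96.1, 99.3 and 125 CPM in RMA late and 102, 77.9 and 125 CPM in RMA-KR late. Neither late group overlapped with control. RMA early (65.3 to 99.4 CPM) and RMA intermediate (82.3 to 112 CPM) did not overlap with control either, while RMA-KR early and intermediate did. In RMA early and intermediate the log2 differences of 0.75 (adjusted p 0.665) and 0.92 (0.0651) did not pass. In RMA late and RMA-KR late they were 1.11 (adjusted p 0.0193) and 1.03 (adjusted p 0.0496), close to the fold of 2 that a call needs. In RMA late the call was lost without control 1 (1.11, adjusted p 0.0549), control 3 (1.04, 0.0672), control 4 (1.02, 0.0815), RMA late 2 (1.18, 0.0612) or RMA late 3 (1.01, 0.0628). It was kept in 6 of 8 other ways of analysis (adjusted p 0.00171 to 0.0802) and lost with the replicate block (1.02, 0.0686) and without the 4 libraries that stand apart (1.06, 0.0802). In RMA-KR late Ripk3 was lost without control 1 (1.06, adjusted p 0.1004), control 2 (adjusted p 0.0907), control 3 (0.99, 0.143), control 4 (0.97, 0.163), RMA-KR late 1 (1.02, 0.151) or RMA-KR late 3 (0.90, 0.187). It was kept in 3 of 8 other ways (adjusted p 0.00523 to 0.157) and lost with no filter (1.04, 0.0913), the replicate block (0.95, 0.157), only the groups compared (1.05, 0.0762) and without the 4 libraries (1.02, 0.131), and with betaPrior=TRUE because the fold was under 2 (0.97, 0.00523).

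Tnfrsf26, a receptor that lacks a death domain, was at 110.2, 91.5, 80.3 and 86.9 CPM in control and at 14.1, 41.2 and 31.7 CPM in RMA intermediate. It fell by 1.67 there (SE 0.41, adjusted p 0.0262), and the call was lost without control 1 (-1.61, 0.0758), RMA intermediate 1 (-1.31, 0.197) or RMA intermediate 3 (-1.71, 0.107). It was kept in 6 of 8 other ways of analysis (adjusted p 0.000177 to 0.0736) and lost with the replicate block (-1.65, 0.0701) and without the 4 libraries that stand apart (-1.70, 0.0736).

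Between the models at day 2, 2 of the 68 genes were called, both higher in RMA early: Nfkb2 and Tank. All genes had 0.304% called there, and the 2 make up 2.94% of the lists. Nfkb2, an NF-kB subunit, and Tank, which binds TRAF proteins, were chosen after their values were seen. Tank was at 126, 77.5 and 81.5 CPM in RMA early and 32.3, 17.9 and 35.7 CPM in RMA-KR early, a log2 difference of 1.73 (adjusted p 0.0187). The groups did not overlap, and the Tank call was lost without RMA early 1 (1.49, 0.0686) or RMA-KR early 2 (1.51, 0.118), and with only the groups compared (1.74, 0.371, in a range from 8.09e-06 over the 8 other ways). From RMA-KR early to intermediate Tank rose by 1.30 (adjusted p 0.0332), lost without RMA-KR early 1 (1.37, 0.0888), 2 (1.05, 0.219) or 3 (1.49, 0.0618) or RMA-KR intermediate 3 (1.19, 0.105), 4 (1.33, 0.0627) or 5 (1.28, 0.0767). That call was lost as well without the 4 libraries that stand apart (1.20, 0.556), 3 of which are in RMA-KR intermediate, with the replicate block (1.37, 0.117) and with only the groups compared (1.29, 0.152), in a range from 0.000755 over the 8 other ways. Nfkb2 was at 74.1, 219 and 153 CPM in RMA early and 69.8, 44.4 and 39.3 CPM in RMA-KR early. Its difference of 1.54 (adjusted p 0.0495) was lost without RMA early 2 (1.15, 0.268) or RMA-KR early 1 (1.81, 0.0511), 2 (1.47, 0.216) or 3 (1.41, 0.172). It was lost with the replicate block (1.52, 0.0808) and with only the groups compared (1.55, 0.446), in a range from 0.00171 over the 8 other ways. In the other 2 comparisons between the models, edgeR called 0 of 68 at the intermediate stage and 0 at the late stage, against 0.503% and 0% of all genes. Of the 68, 9 and 2 had an unadjusted p under 0.05.

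Among the other ligands, Ltb encodes lymphotoxin beta. It was at 59.7, 42.7, 184, 320.2 and 214 CPM in RMA-KR intermediate and 11.6, 22.0 and 28.0 CPM in RMA-KR late. The 3 highest of these are the libraries that stand apart. Ltb fell by 3.00 between these stages (SE 0.65, adjusted p 0.0411), and the call was lost without the 4 libraries (-1.29, adjusted p 0.699, in a range from 6.81e-13 over the other ways), with the replicate block (-2.16, 0.0911) and with only the groups compared (-3.02, 0.197). It was lost as well without RMA-KR intermediate 3 (-2.96, 0.0847), 4 (-2.61, 0.137) or 5 (-2.88, 0.0820), or RMA-KR late 1 (-2.71, 0.235), 2 (-3.02, 0.0900) or 3 (-3.24, 0.0883). Tnf itself ran from 0 to 13.8 CPM and Tnfsf9, which encodes the ligand of 4-1BB, from 0 to 14.0 CPM with a median of 5.01 CPM. Cd27, a costimulatory receptor of NK cell subsets, ran from 113 to 311 CPM, and Tnfrsf25, a death domain receptor, from 0 to 14.97 CPM. The TRAF genes Traf1 (340 to 745 CPM) and Traf2 (64.8 to 170 CPM) and the ubiquitin ligase gene Birc3 (84.1 to 192 CPM) were well expressed and, like Tnf, Tnfsf9, Cd27 and Tnfrsf25, called by edgeR in 0 of the comparisons. Unadjusted p under 0.05 were seen for Tnfrsf25 in 7 comparisons, for Traf2 in 2, and for Tnf, Cd27, Traf1 and Birc3 in 0. The libraries that stand apart held the highest levels of Tnfrsf25. It was 11.8 CPM in control 4 and 14.97, 7.68 and 6.45 CPM in RMA-KR intermediate 3, 4 and 5. In the others it reached at most 5.48 CPM.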

How the data were processed

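The authors trimmed the reads with cutadapt 1.10, removed rRNA reads with Bowtie2 2.2.8, aligned the rest to mm10 with STAR 2.5.3a and counted reads per Ensembl 96 gene with HTSeq 0.6.1p1, and the deposited table holds these raw counts. It has 112 columns, of which 24 columns of raw counts were used. The other 48 columns of values for single libraries, 2 for each library, and the columns of comparisons made by the authors were not used.

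Counts were filtered with filterByExpr on the 7 groups, scaled by TMM and fitted with the robust quasi-likelihood model of edgeR 4.0.16, and p was adjusted by Benjamini and Hochberg over all tested genes. limma 3.58.1, DESeq2 1.42.0, R 4.3.3, Python 3.11.15, numpy 2.4.6, pandas 2.3.3, scipy 1.17.1 and matplotlib 3.10.9 were used besides. The 8 other ways of analysis were edgeR with the size factors of DESeq2, a fit of all genes however low, a stricter filter that asks for 10 counts or more from each library, a replicate block made of the replicate numbers, a fit to only the libraries of the groups compared, DESeq2 with default settings, DESeq2 with betaPrior=TRUE, an option named in the methods of the study, and a fit without the 4 libraries that stand apart. The last was chosen after seeing the data. Each of the 24 libraries was left out in turn as well. The code was tested on simulated data.

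The members and the gene lists were chosen with earlier results of these data known. After the results were seen, 3 genes were left out of the lists, for a reason unrelated to their values, and list sums and counts are without them. Named are all 9 members, every gene of the 5 pathway lists called in at least 1 comparison with control, and Tnf, Cd27, Ltb, Tnfrsf25, Traf1, Traf2 and Birc3. Named are further the 10 genes with the highest Pearson correlation of log2 CPM (prior count 2) with Tnfrsf9, and from each marker list its most abundant gene and the defining markers at 0. Nfkb2, Tank, Tnfsf9, Capg, Cd68, Igkc, Jchain, Cd22, Cd3d, Cd3g, Cd5, Lta, Tnfsf11, Tnfsf13, Tnfsf13b and Eda were chosen after their values were seen. So were Ctla4, Il2ra, Tnfaip3, Nfkbia, Nfkbiz and Gzmb. Lengths are the union of the exon bases of a gene.

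Promoters were taken from RefSeq on GRCm38.p6, and both strands were searched for the NF-kB and AP-1 motifs in the same way for all 32851 promoters. No test was made on these matches.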

Additional observations from a re-analysis of the deposited data

Results flagged for a closer look

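Libraries far from the others of their group were looked for in control and RMA-KR intermediate alone, the groups with the most libraries. In 60 groups of levels from these, 4 were found. The smaller groups were not searched. Chance gives a value this far out in about 1 in 20 groups, or about 3 in 60. Tnfsf10 was 3.68 CPM in control 1, where the nearest control was 18.7 CPM. Ltb was 181 CPM in control 4, where the nearest control was 58.9 CPM. Birc3 was 158 CPM in RMA-KR intermediate 2, where the nearest library of that group was 107 CPM. The summed level of the 5 red blood cell markers was 0 CPM in RMA-KR intermediate 5, where the nearest library of that group was 0.540 CPM. All 4 drew attention because 1 library lay far from the rest of its group. Control 4 is 1 of the 4 libraries that stand apart in immediate early genes.

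Called differences between the 2 tumor models drew attention as well, 3 in all. RMA early exceeded RMA-KR early in log2 level by 1.54 for Nfkb2, 1.60 for Tnfrsf1a and 1.73 for Tank. The cause of these differences was not tested.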

How the results depend on the processing

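Each result was worked out again under the 8 other ways of analysis and with each library left out in turn. The 1171 values are log2 differences and counts of genes. Of these, 945 were unchanged, which for a log2 difference means the same sign and the same side of the threshold for a call. A log2 difference that changed in size alone, or stayed not called, counts as unchanged. A call was lost for 102 and gained for 16, and 14 log2 differences changed sign. The 94 that moved were counts of genes. The cause was not tested. With at least 10 counts in every library, Tnfsf10 gave no value.

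With the replicate number as a replicate block, edgeR called 0 members in RMA-KR early against control, 0 in RMA-KR intermediate against control and 0 in RMA-KR intermediate against RMA-KR early. In the same order 0%, 0.00585% and 0.0117% of all genes were called, against 0.0819%, 0.0175% and 0.462% without the block. Tnfrsf9 was then 1.62 (adjusted p 0.140) in RMA-KR intermediate against control and 1.46 (0.154) in RMA-KR intermediate against RMA-KR early. Tnfrsf1a was 0.0761 in RMA early against control, -1.56 (0.0833) in RMA-KR early against control and 1.31 (0.126) in RMA-KR intermediate against RMA-KR early. For the change from early to late in RMA-KR against RMA, Tnfrsf9 was -0.0614 with the replicate block and 0.09 without it. Libraries of the same replicate number were no more alike than others: after group means were taken off, 64 such pairs had a median correlation of -0.007 (-0.118 to 0.202), and 181 other pairs had 0.003.

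Without the 4 libraries that stand apart, a choice made after seeing the data, edgeR called 0 members in RMA-KR early against control, 0 in RMA-KR intermediate against control and 0 in RMA-KR intermediate against RMA-KR early, and 1 in RMA intermediate against RMA-KR intermediate (Fasl). In the same order 0.0111%, 0%, 0% and 0.412% of all genes were called. The NF-kB list gained calls. Tnfaip3 was called lower from RMA early to RMA intermediate (-1.42, adjusted p 0.0155) and to RMA late (-1.15, 0.0368). Nfkbiz was called lower from RMA early to RMA intermediate (-1.24, adjusted p 0.0374). Tnfrsf9 was 1.31 (adjusted p 0.733) in RMA-KR intermediate against control and 1.13 (0.556) against RMA-KR early, and 0.27 in RMA-KR late against RMA-KR intermediate, where it is -0.11 with all libraries. Tnfrsf1a was 0.11 in RMA early against control, -1.50 (0.0966) in RMA-KR early against control and 1.28 (0.556) in RMA-KR intermediate against RMA-KR early.

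With only the libraries of the groups compared, edgeR called 0 members in RMA-KR early against control, 0 in RMA-KR intermediate against control, 0 in RMA early against RMA-KR early, 0 in RMA intermediate against RMA early, 0 in RMA late against RMA early and 0 in RMA-KR intermediate against RMA-KR early. Few genes of any kind were called there: in the same order 0.0544%, 0%, 0%, 0.573%, 0.00870% and 0% of all genes. Tnfrsf9 was 1.63 (adjusted p 0.224) in RMA-KR intermediate against control, 1.49 (0.118) in RMA intermediate against RMA early, 1.27 (0.216) in RMA late against RMA early and 1.50 (0.123) in RMA-KR intermediate against RMA-KR early. Tnfrsf1a was -1.66 (0.0933) in RMA-KR early against control, 1.60 (0.371) in RMA early against RMA-KR early and 1.47 (0.152) in RMA-KR intermediate against RMA-KR early.

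In RMA-KR late against control, 2 members were called with at least 10 counts in every library and 2 by DESeq2 with default settings, where Tnfrsf1a was -1.05 (adjusted p 0.0494) and -1.03 (0.0139). More of all genes were called there too, 2.59% and 3.51%, against 0.983% in the main analysis. In RMA-KR late against RMA-KR early, 1 member (Tnfrsf9) was called with no filter on low counts (1.40), 1 with at least 10 counts in every library (1.36), 1 by DESeq2 with default settings (1.36) and 1 with betaPrior=TRUE (1.20). In the same order 0.745%, 1.59%, 3.44% and 2.79% of all genes were called, against 0.322% in the main analysis. In RMA-KR late against RMA-KR intermediate, 1 member was called with no filter on low counts and 1 with betaPrior=TRUE (Tnfsf14). All genes had 0.581% and 1.60% called there, against 0.298% in the main analysis. Tnfrsf1a in RMA early against control, -0.06 with TMM, was 0.00823 with DESeq2 size factors in edgeR and 0.00798 with DESeq2 with default settings.

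When 1 library was left out, the members called ran from 0 to 1 in RMA-KR early, RMA-KR intermediate and RMA-KR late against control, in RMA early against RMA-KR early, in RMA intermediate against RMA early, in RMA late against RMA early and in RMA-KR late against RMA-KR early, and from 0 to 2 in RMA-KR intermediate against RMA-KR early. Tnfrsf9 ran from 1.45 to 1.77 in RMA-KR intermediate against control, from 1.30 to 1.72 in RMA-KR late against control, from 1.17 to 1.81 in RMA intermediate against RMA early and from 0.94 to 1.61 in RMA late against RMA early. It ran from 1.30 to 1.61 in RMA-KR intermediate against RMA-KR early, from -0.33 to 0.10 in RMA-KR late against RMA-KR intermediate, from 1.17 to 1.60 in RMA-KR late against RMA-KR early and from -0.23 to 0.48 for the change from early to late in RMA-KR against RMA.

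Tnfrsf1a ran from -0.12 to 0.0746 in RMA early against control, from -1.96 to -1.44 in RMA-KR early against control, from -1.40 to -0.79 in RMA-KR late against control, from 1.41 to 1.91 in RMA early against RMA-KR early and from 1.26 to 1.77 in RMA-KR intermediate against RMA-KR early when 1 library was left out. The groups hold 3 to 5 libraries, and tumor and day differ together after day 2.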
